A study of Rattus norvegicus with 167 samples.

Results

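The late caudal response to an empty implant was examined in 12 arrays of a rat spinal cord injury series that holds 155 others. These were the 6 arrays of caudal cord from animals given an empty chitosan tube (ET) and the 6 from lesion controls (LC), taken 60 and 90 days after surgery, with 3 arrays for each treatment and day. The animals were adult female Wistar rats. In all of them the mid-thoracic cord had been cut through completely and a 5 mm segment taken out. The gap received an empty chitosan tube in ET animals and was left unfilled in LC animals. Each array measured RNA from the 5 mm of cord directly below the lesion segment, so neither the implant site nor its contents were in the sample. Arrays of uninjured cord (3), of caudal cord from animals whose tube carried neurotrophin-3 (NT3; 6 on the same days), of caudal ET and LC cord on days 1 and 3 and of rostral ET and LC cord on days 60 and 90 were used for context. Whether each array stands for its own animal is not in the labels, and p-values cover only the spread between arrays within groups, which may be technical. That spread was estimated from 66 arrays, all caudal groups and uninjured cord, with caudal cord of days 10, 20 and 30 included. Between segments it came from 128 arrays.

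Below a complete transection the cord keeps its own neurons and glia but loses all descending axons, and a scar of fibroblasts, pericytes and reactive glia forms at the cut. Chitosan is a polysaccharide used as a degradable guide for regrowing axons. An empty tube differs from no tube in the material placed in the gap and in the surgery needed to place it, and these cannot be told apart here. In whole tissue, fewer cells of a type and less RNA per cell cannot be told apart either.

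Values are the authors' log2 intensities, and ET minus LC is the difference of group means averaged over the 2 days, so a difference of 1 is 2-fold. No detection calls were used. A gene was tested if it exceeded the 40th percentile of the array on 3 or more arrays of the series, a level of 6.55 to 6.59 on these 12, so a tested gene can lie below that level in any group, and differences that involve such low values are imprecise in size. Medians of the 12 arrays lay between 7.20 and 7.23, and correlations between them between 0.978 and 0.993. The arrays were those of injured cord with abundant neuronal, glial and myelin RNA. Snap25, Gfap and Mbp, markers of neurons, astrocytes and oligodendrocytes, lay above 99.4% of genes on each of the 12 arrays. The neuronal marker Syt1 and the oligodendrocyte lineage marker Olig2, as probed here, lay at or below the 17.2nd percentile of genes. Of the other astrocyte markers, Aqp4 lay between the 99.2nd and 99.6th percentiles, Aldh1l1 between the 65.9th and 72.8th and Slc1a2 between the 25.4th and 37.0th. Cd68, a lysosomal marker of phagocytes, read 11.66, 11.52 and 11.98 in ET and 11.69, 11.78 and 11.55 in LC on day 60, against 6.55, 6.50 and 6.56 in uninjured cord. The difference between the 3′ and 5′ beta-actin control probe sets, a measure of RNA integrity, was 0.95 to 1.11 in the 6 ET arrays, against 0.85 to 1.48 in LC on day 60 and 0.77 to 0.86 in LC on day 90.

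Late after injury, caudal ET cord differed little from LC cord. Of 12040 genes tested, 14 passed an adjusted p of 0.05, which is 0.116%, with 9 higher and 5 lower in ET (12 and 4 after quantile normalisation, 11 and 3 with arrays scaled on their 75th percentile). The 9 higher genes were Igfbp6, Mgp, Sult1a1, Fmo2, Tpm2, Tagln, Comp, Aldh3a1 and Abcc9. The 5 lower genes were Cdhr4, Cyp2j10, Bmal1, Rnf138 and LOC100912188. All of these differences were small, from 0.28 to 1.01 on the log2 scale in size, and the smallest adjusted p was 0.0152. The calls were fragile. One fit of all arrays of the series called 12 genes higher and 0 lower, 8 of them among the 14. No gene passed when ET day 60 replicate 3, ET day 90 replicate 2, ET day 90 replicate 3 or LC day 90 replicate 3 was left out, or when the spread was estimated from the 12 arrays alone. Without ET day 60 replicate 1, ET day 90 replicate 1, LC day 60 replicate 1 or 3 or LC day 90 replicate 1 or 2, 2 to 8 genes passed, and with array weights 609. The sign of each of the 14 differences was the same in 24 alternative settings, these included, and each gene was called in 8 to 18 of them. Some settings leave the group means unchanged and the others reuse most of the same arrays, so the kept sign is no separate support. At an unadjusted p under 0.05, 516 genes were higher (4.29%) and 474 lower (3.94%).

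**Figure D1:**
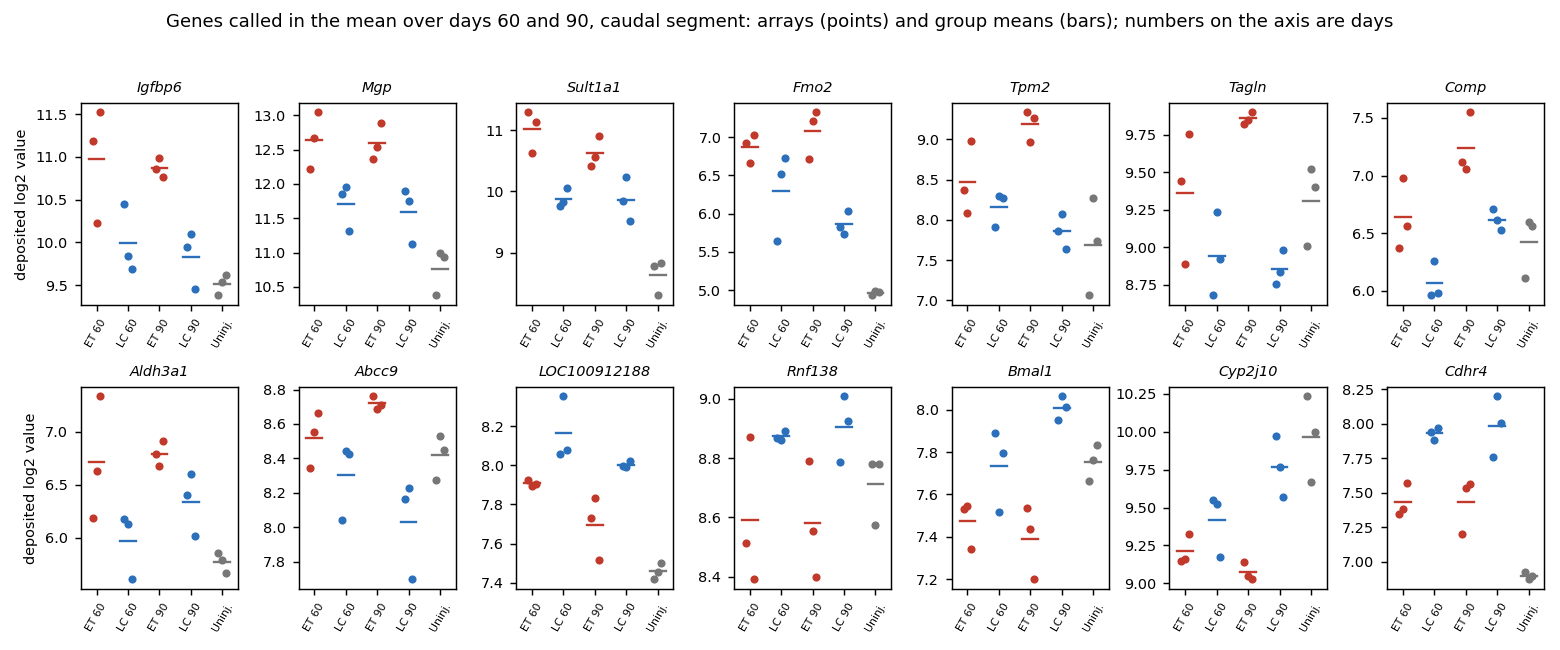
Deposited log2 values of the 14 called genes in caudal ET and LC arrays on days 60 and 90 and in uninjured cord (points, 3 arrays a group; bars, group means; vertical axes differ between genes). Mgp and Sult1a1 lie higher in each ET array than in any LC array, while Rnf138 overlaps on both days.

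Igfbp6 and Mgp had the largest called differences. Igfbp6, which binds insulin-like growth factors, read 11.18, 10.23 and 11.52 in ET and 10.45, 9.84 and 9.68 in LC on day 60. Its day 90 values were 10.86, 10.99 and 10.76 in ET and 9.95, 10.10 and 9.45 in LC. The groups overlapped on day 60 and were separate on day 90. Its ET minus LC difference was 1.01 ± 0.21 (SE; adjusted p = 0.035), similar on both days (0.98 and 1.04). Mgp, matrix Gla protein, an inhibitor of tissue calcification, read 12.22, 12.67 and 13.05 in ET and 11.86, 11.96 and 11.32 in LC on day 60. Day 90 gave 12.37, 12.53 and 12.89 in ET and 11.89, 11.76 and 11.12 in LC. All 6 ET arrays lay above all 6 LC arrays, a pattern shared by 0.241% of tested genes in this direction and by 0.241% in the other. The difference was 0.97 ± 0.18 (SE; adjusted p = 0.0152), and uninjured cord lay below both groups, at 10.37 to 11.00. Comp, cartilage oligomeric matrix protein, differed by 0.60 ± 0.13 (SE; adjusted p = 0.0405), with no overlap on either day. Its level changed with the day in both groups, so that ET on day 60 (6.37, 6.98 and 6.57) lay close to LC on day 90 (6.71, 6.61 and 6.53).

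Of the called enzymes, Sult1a1, Fmo2 and Aldh3a1 were higher in ET and Cyp2j10 lower. Sult1a1, a cytosolic sulfotransferase, read 11.29, 10.62 and 11.14 in ET and 9.76, 9.82 and 10.05 in LC on day 60. On day 90 it read 10.41, 10.57 and 10.91 in ET and 9.85, 10.23 and 9.51 in LC. All 6 ET arrays again lay above all 6 LC arrays, and the difference was 0.95 ± 0.18 (SE; adjusted p = 0.0152). Fmo2, a flavin-containing monooxygenase, was low in uninjured cord (4.93 to 4.99). It read 6.93, 6.66 and 7.03 in ET and 5.65, 6.51 and 6.72 in LC on day 60, and 6.72, 7.21 and 7.33 in ET and 5.83, 5.73 and 6.04 in LC on day 90. Overlap was confined to day 60, and the difference was 0.90 ± 0.17 (SE; adjusted p = 0.0152). Aldh3a1, an aldehyde dehydrogenase, differed by 0.60 ± 0.13 (SE; adjusted p = 0.0405), from 6.19 to 7.34 in ET and from 5.61 to 6.60 in LC. Only 1 of the 6 LC arrays exceeded the filter level for Fmo2, and 1 for Aldh3a1, so the sizes of both differences are imprecise. Cyp2j10, a cytochrome P450, read 9.15, 9.16 and 9.33 in ET and 9.55, 9.53 and 9.18 in LC on day 60, and 9.14, 9.05 and 9.03 in ET and 9.97, 9.77 and 9.57 in LC on day 90, a difference of -0.45 ± 0.10 (SE; adjusted p = 0.0405).

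Tagln, Tpm2 and Abcc9 were also higher. Tagln, transgelin, an actin-binding protein of smooth muscle and myofibroblasts, read 9.44, 8.89 and 9.76 in ET and 8.68, 9.23 and 8.92 in LC on day 60. The day 90 values were 9.82, 9.85 and 9.90 in ET and 8.75, 8.83 and 8.98 in LC. The day 90 arrays did not overlap, and the difference over both days was 0.71 ± 0.14 (SE; adjusted p = 0.0266). Tpm2, beta-tropomyosin, read 8.37, 8.08 and 8.97 in ET and 7.91, 8.30 and 8.28 in LC on day 60, against 9.33, 8.96 and 9.26 in ET and 7.86, 8.07 and 7.63 in LC on day 90. Its difference was 0.82 ± 0.18 (SE; adjusted p = 0.0405). Abcc9, the sulfonylurea receptor subunit of potassium channels in pericytes and muscle, read 8.35, 8.55 and 8.67 in ET and 8.04, 8.44 and 8.42 in LC on day 60, against 8.76, 8.69 and 8.71 in ET and 8.17, 8.23 and 7.70 in LC on day 90. Its difference was 0.45 ± 0.10 (SE; adjusted p = 0.0405). These 3 genes are found in vessel wall, and Tpm2 and Abcc9 also in muscle. Skeletal muscle list means on day 90 were 6.33 to 7.75 in ET and 5.94 to 6.22 in LC, against 6.36 to 6.45 in uninjured cord (given below). On day 60 they were 6.04 to 6.29 in ET and 5.99 to 6.31 in LC.

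Among the lower genes, Bmal1 encodes the activating transcription factor of the circadian clock. It read 7.53, 7.55 and 7.34 in ET and 7.89, 7.52 and 7.80 in LC on day 60. On day 90 it read 7.53, 7.44 and 7.20 in ET and 7.95, 8.06 and 8.01 in LC. The day 90 arrays were separate, and the difference was -0.44 ± 0.09 (SE; adjusted p = 0.0256). Cdhr4, a cadherin-related gene, read 7.35, 7.38 and 7.57 in ET and 7.94, 7.88 and 7.97 in LC on day 60, and 7.20, 7.53 and 7.56 in ET and 7.76, 8.20 and 8.01 in LC on day 90. All 6 ET arrays lay below all 6 LC arrays, at a difference of -0.53 ± 0.12 (SE; adjusted p = 0.0405). LOC100912188, which also separated all 12 arrays, differed by only -0.28 ± 0.06 (SE; adjusted p = 0.0472). Rnf138, an E3 ubiquitin ligase, differed by -0.30 ± 0.07 (SE; adjusted p = 0.0405).

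In the NT3 arrays of the same days, which share no sample with ET or LC, several of these genes lay at the LC level. Sult1a1 ranged from 9.55 to 10.27 in NT3 arrays, below all ET arrays (10.41 to 11.29) and within the range of the LC arrays (9.51 to 10.23) but for its upper end. Igfbp6 ranged from 9.13 to 10.25 in NT3 arrays, against 10.23 to 11.52 in ET and 9.45 to 10.45 in LC. Others did not. Tagln ranged from 9.26 to 9.87 in NT3 arrays, against 8.89 to 9.90 in ET and 8.68 to 9.23 in LC. All NT3 arrays also lay above all LC arrays for Tpm2 (8.38 to 8.88 in NT3, at most 8.30 in LC) and Comp (6.72 to 7.33 in NT3, at most 6.71 in LC). Abcc9 ranged from 8.35 to 8.92 in NT3 arrays, close to its range in ET (8.35 to 8.76). No test of NT3 against either group was made.

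Only 2 regulatory sequences are shown, since each is the promoter of a gene in a list with a count below and holds a motif of a known regulator. The first, of the clock gene, holds in capitals AGGTCA, the half-site bound by ROR and REV-ERB receptors, which drive and repress Bmal1 in the mouse. The second, of the muscle actin gene Acta1, holds in capitals the CArG box bound by serum response factor. Both are RefSeq sequence from 250 bases before to 50 after the gene's start in assembly GRCr8, read 5′ to 3′ on the gene's strand, at chr1:176766078-176766377 (plus strand) and chr19:68784145-68784444 (minus strand). Promoters were given for 11 of the 14 called genes.
Bmal1: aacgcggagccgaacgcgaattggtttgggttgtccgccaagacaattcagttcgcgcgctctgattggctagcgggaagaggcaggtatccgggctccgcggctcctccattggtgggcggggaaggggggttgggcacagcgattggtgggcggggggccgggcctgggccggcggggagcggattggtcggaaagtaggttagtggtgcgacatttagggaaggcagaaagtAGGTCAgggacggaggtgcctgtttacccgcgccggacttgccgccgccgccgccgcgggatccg
Acta1: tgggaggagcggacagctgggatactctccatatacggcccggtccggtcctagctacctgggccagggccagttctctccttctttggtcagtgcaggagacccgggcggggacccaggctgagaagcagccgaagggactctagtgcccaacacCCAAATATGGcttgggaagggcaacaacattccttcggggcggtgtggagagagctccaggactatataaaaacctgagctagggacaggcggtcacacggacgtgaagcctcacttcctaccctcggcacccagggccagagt
AGGTCA, searched on both strands, starts 15 bases before the start of Bmal1 and also lies in the promoters of Igfbp6, Fmo2 and LOC100912188. It is present in 16.2% of 33469 promoters of the same length. The CArG box starts 94 bases before the start of Acta1 and is present in 1.64% of them. The E-box CACGTG, also searched, was found in none of these 11 genes' promoters or that of Acta1. These are matches of letters, not measured binding.

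Only 1 of the 20 clock genes tested was called in the mean over both days, Bmal1. At an unadjusted p under 0.05, 5 were higher in ET and 4 lower, Bmal1 among them, against the 4.29% and 3.94% of all genes. The 5 became 2 without ET day 60 replicate 3, ET day 90 replicate 3 or LC day 60 replicate 1. The 4 became 1 or 2 without ET day 60 replicate 3, ET day 90 replicate 1, LC day 60 replicate 2 or LC day 90 replicate 2. Per2, a repressor of the clock, read 8.79, 9.02 and 9.15 in ET and 8.04, 8.99 and 8.72 in LC on day 60. Its values on day 90 ranged from 8.71 to 9.27 in ET and from 7.84 to 8.45 in LC, with no overlap. Its difference of 0.64 ± 0.15 (SE) missed the threshold (adjusted p = 0.0783). Hlf, a clock output factor, differed by 0.24 ± 0.07 (SE; adjusted p = 0.22), and Clock, the partner of BMAL1, by -0.14 ± 0.07 (SE; adjusted p = 0.56). The labels give no hour of tissue collection.

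Connective tissue genes lay mostly above 0, though few passed singly. Of the 29 extracellular matrix and fibrosis genes tested, 2 were called, Mgp and Tagln, both higher. In all, 28 of the 29 lay above 0, 13 were higher and 0 lower at an unadjusted p under 0.05 (4.29% and 3.94% over all genes), and the median was 0.36, against 0.003 for all tested genes. The 13 became 6 without ET day 60 replicate 3 or LC day 90 replicate 3, 7 without LC day 60 replicate 2 and 8 without ET day 90 replicate 3. Dcn, the collagen-binding proteoglycan decorin, read 12.90, 13.03 and 13.25 in ET and 12.90, 12.03 and 12.74 in LC on day 60. On day 90 it read 13.06, 12.75 and 12.86 in ET and 12.70, 12.63 and 11.63 in LC. Its difference of 0.54 ± 0.17 (SE) was not called (adjusted p = 0.25). Postn, periostin, a matrix protein of the fibrotic scar, had a difference of 0.85 ± 0.32 (SE; adjusted p = 0.41), with 1 LC array at 8.13 among the ET values. Col1a1 had 0.39 ± 0.27 (SE; adjusted p = 0.74). The list's mean over its members ranged from 9.21 to 9.93 in the 6 ET arrays and from 8.81 to 9.48 in the 6 LC arrays, against 8.19 to 8.32 in uninjured cord, and the ET and LC ranges overlapped. Its median was lowest, at 0.25, without ET day 60 replicate 3.

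Meningeal and connective tissue markers had a median of 0.24 (0.41 on day 60, 0.12 on day 90), with 0 of 16 called. At an unadjusted p under 0.05, 5 were higher and 0 lower, against 4.29% and 3.94% over all genes. The 5 became 2 or 3 without ET day 60 replicate 3, ET day 90 replicate 3, LC day 60 replicate 2 or LC day 90 replicate 3, and without the last of these the median was 0.12. Schwann cell genes had the same median (0.24), with 5 of 12 higher, among them Prx, periaxin of peripheral myelin, at 0.55 ± 0.18 (SE; adjusted p = 0.31). Of these 12, 0 were called, and the 5 higher and 0 lower stand against the same shares of all genes. The mean of the Schwann list was 9.08 to 9.31 in ET and 9.04 to 9.07 in LC on day 60, and 9.24 to 9.34 in ET and 8.84 to 9.11 in LC on day 90. It did not overlap between ET and LC on either day, but on day 60 the lowest ET array (9.077) barely exceeded the highest LC array (9.073). Meninges and nerve roots lie against the cord, and the part of tissue dissected with it in these results was not tested.

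Vessel genes lay mostly above 0 as well. Of 19 endothelial and pericyte genes, 0 were called in the mean over both days, 10 were higher and 0 lower at an unadjusted p under 0.05 (4.29% and 3.94% over all genes), and the median was 0.21. The 10 became 5 without ET day 60 replicate 1 and 6 without ET day 90 replicate 1. Erythrocyte genes, a sign of blood in the sample, lay above 0 too. The 5 tested had differences of 0.22 to 0.77 with a median of 0.31 (0.18 without ET day 60 replicate 3), 0 of them called and 1 higher at an unadjusted p under 0.05. Their mean level ranged from 7.93 to 9.20 in ET and from 7.62 to 8.22 in LC, against 8.49 to 9.05 in uninjured cord. The part of blood in these results was not tested. Abcb1a, the efflux pump of the blood-brain barrier, differed by 0.45 ± 0.12 (SE; adjusted p = 0.12). Cldn5, a tight junction protein, differed by 0.28 ± 0.09 (SE; adjusted p = 0.28). On day 90 alone 2 of the 19 vessel genes were called, Emcn and Rgs5, against 0.316% of all genes. Emcn, an endothelial sialoprotein, read 9.53, 9.25 and 9.20 in ET and 8.61, 8.80 and 8.70 in LC (0.62 ± 0.12, SE; adjusted p = 0.00258). Rgs5, a pericyte regulator of G protein signalling, read 9.02, 9.09 and 9.09 in ET and 8.61, 8.36 and 8.36 in LC (0.63 ± 0.13, SE; adjusted p = 0.0091).

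Immediate early and glucocorticoid-responsive genes lay mostly above 0. Of 27 immediate early genes, 13 were higher and 1 lower at an unadjusted p under 0.05 (4.29% and 3.94% over all genes; median 0.18), with 0 called over both days. On day 60 alone 12 were higher at that p and 0 lower (median 0.31), against 4.16% and 3.53% of all genes, and 1 was called, against 0.125%. On day 90 alone 1 was higher and 0 lower (median 0.09, 0 called), against 4.73% and 4.87% of all genes. The 13 became 8 after quantile normalisation, 8 without ET day 60 replicate 3, ET day 90 replicate 1 or LC day 60 replicate 1 or 3, and 6 without LC day 90 replicate 1. Egr2, a zinc finger factor that is also the regulator of peripheral myelin, read 8.67, 9.28 and 9.05 in ET and 8.54, 8.36 and 8.36 in LC on day 60. Day 90 levels were 8.75, 8.82 and 8.81 in ET and 8.49, 8.53 and 8.12 in LC. All 6 ET arrays lay above all 6 LC arrays, and the difference of 0.49 ± 0.15 (SE) was not called (adjusted p = 0.22). Of 17 glucocorticoid-responsive genes, 9 were higher and 0 lower at an unadjusted p under 0.05 (median 0.26), and Sult1a1 was the 1 called. The 9 became 3 without LC day 60 replicate 1 and 4 without LC day 90 replicate 1, when the median was 0.16. Tsc22d3, which encodes GILZ, differed by 0.38 ± 0.10 (SE; adjusted p = 0.15), with no overlap on either day. The immediate early and glucocorticoid lists share Dusp1, and the Schwann list holds Egr2 as well.

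**Figure D2:**
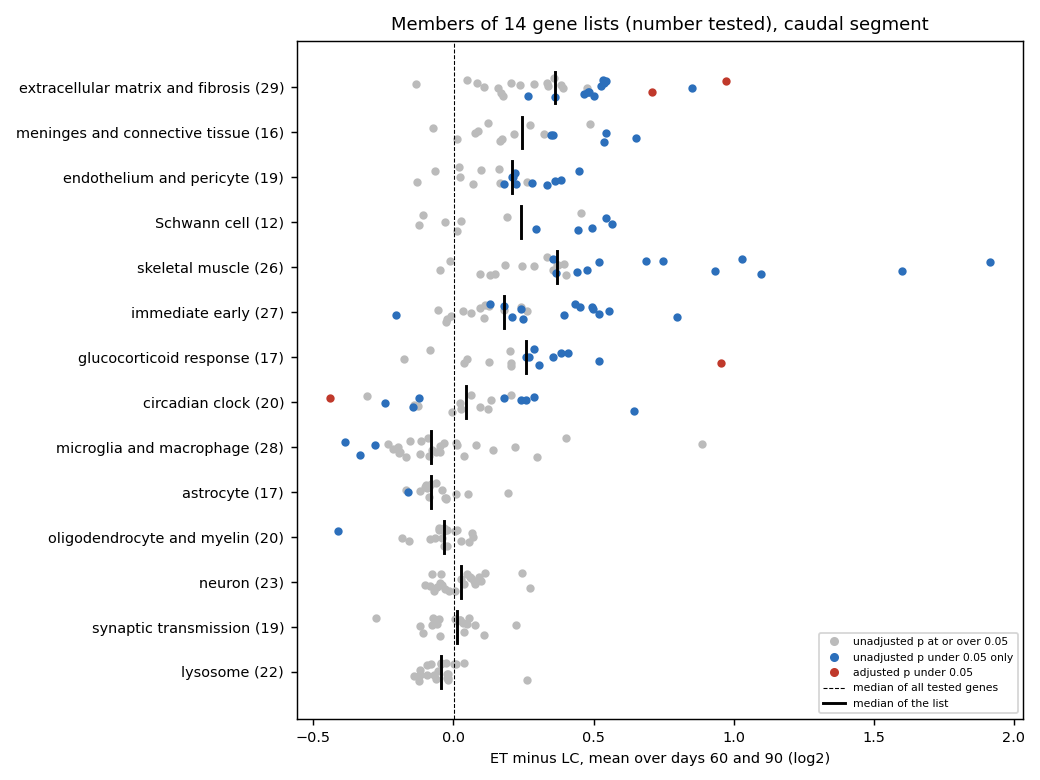
ET minus LC (log2, mean over days 60 and 90) of each tested member of 14 gene lists, with the number tested in parentheses (points; long black bar, the list's median; dashed line, the median of all tested genes). Matrix, vessel, muscle, immediate early and glucocorticoid lists lie mostly to the right of 0, and neuronal and synaptic lists around it. Lysosomal, astrocyte, microglial and myelin lists lie mostly to the left.

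With 0.116% of all genes called, a count of 0 in a list of this size says little, and the neuronal, glial and immune lists are described by their medians and values. Of 23 neuron genes, 19 synaptic transmission genes and 22 lysosomal genes, 0 were called in limma's test and 0 passed an unadjusted p of 0.05. Their medians were 0.03, 0.01 and -0.04, and 18 of the 22 lysosomal genes lay below 0, against 5857 of all 12040. Also below 0 were 14 of 17 astrocyte, 19 of 28 microglia and macrophage and 14 of 20 myelin genes. Snap25, a synaptic vesicle fusion protein, read 13.47, 13.68 and 13.28 in ET and 13.36, 13.49 and 13.61 in LC on day 60 and differed by -0.05 ± 0.08 (SE; adjusted p = 0.91) over both days. Gfap, the intermediate filament of astrocytes, differed by -0.06 ± 0.05 (SE; adjusted p = 0.76), and Mbp, myelin basic protein, by -0.03 ± 0.04 (SE; adjusted p = 0.86). Aif1, the microglial marker IBA1, differed by -0.28 ± 0.13 (SE; adjusted p = 0.59), and 3 of 28 microglia and macrophage genes were lower at an unadjusted p under 0.05 (3.94% over all genes). The 3 became 6 without LC day 60 replicate 2 and 5 without ET day 90 replicate 1. Opalin, a protein of mature oligodendrocytes, was the 1 of 20 myelin genes called on day 90, against 0.316% of all genes. It differed by -0.85 ± 0.19 that day (SE; adjusted p = 0.0204). Neural progenitor genes had 1 of 15 higher and 5 lower at an unadjusted p under 0.05, Sox2 and Pax6 among the 5, against 4.29% and 3.94% of all genes. The 5 became 2 without ET day 90 replicate 2 and 3 without ET day 60 replicate 3.

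None of the neurotrophin genes named here was among the 14. Ntf3, which encodes neurotrophin-3, lay below the filter on low values. Its receptor Ntrk3 differed by -0.04 ± 0.17 (SE; adjusted p = 0.97). Ntrk2, the receptor of brain-derived neurotrophic factor, differed by -0.11 ± 0.09 (SE; adjusted p = 0.78), and Bdnf itself by -0.02 ± 0.13 (SE; adjusted p = 0.98). Bdnf lay below the filter level on all 12 arrays. Ngfr, the shared low-affinity receptor, differed by -0.11 ± 0.22 (SE; adjusted p = 0.92).

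On day 60 alone there were 15 calls (0.125%), 11 higher and 4 lower in ET. Neuropeptides were among them. Vip, vasoactive intestinal peptide, read 8.50, 8.01 and 8.11 in ET and 6.72, 6.57 and 6.60 in LC, against 7.86 to 8.07 in uninjured cord (1.58 ± 0.30, SE; adjusted p = 0.00993). Crh, corticotropin-releasing hormone, read 7.41, 6.73 and 7.21 in ET and 5.43, 5.66 and 5.23 in LC, against 5.30 to 5.77 in uninjured cord (1.68 ± 0.35, SE; adjusted p = 0.0391). On day 90 neither was called, with Crh at 6.27, 5.20 and 5.08 in ET and 5.16, 5.87 and 5.50 in LC. Crh lay below the filter level on all LC arrays of both days, so the size of its difference is imprecise. The 4 lower genes on day 60 were Ighl2, Rnase1l2, Spag5 and Socs6. Ighl2 read 5.47, 5.48 and 5.93 in ET and 9.20, 6.29 and 5.87 in LC, with 1 LC array far above the others, a difference of -1.50 ± 0.33 (SE; adjusted p = 0.0454). Spag5, a mitotic spindle protein, read 9.10, 9.27 and 9.21 in ET and 9.90, 10.03 and 9.99 in LC.

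Day 90 gave 38 calls (0.316%), 15 higher and 23 lower. Acta1, the actin of skeletal muscle fibres, headed the higher genes at 8.95, 10.34 and 7.08 in ET and 5.45, 5.68 and 5.98 in LC (3.09 ± 0.73, SE; adjusted p = 0.0373). On day 60 it was 6.37, 5.53 and 6.07 in ET and 6.33, 6.25 and 5.06 in LC. It lay below the filter level on all LC arrays of both days, so the size of its difference is imprecise. Of 26 skeletal muscle genes tested, Acta1 was the 1 called on day 90, and 20 were higher at an unadjusted p under 0.05 that day (4.73% over all genes) and 0 on day 60 (4.16%), with medians of 0.73 and -0.01. Myl1, a myosin light chain of fast fibres, read 9.70, 10.15 and 5.90 in ET and 4.64, 4.79 and 4.80 in LC on day 90, so 1 ET array lay far below the other 2 (adjusted p = 0.0646). The list's mean was 6.33 to 7.75 in ET and 5.94 to 6.22 in LC on day 90, 6.31 to 6.72 in the NT3 arrays of that day and 6.36 to 6.45 in uninjured cord. With that mean as a covariate, Tpm2 lost its call over both days (adjusted p = 0.0534) at a similar difference of 0.82, whereas Tagln kept it (adjusted p = 0.0293). The covariate raised the count over both days to 23 and that on day 90 to 58.

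Some genes had opposed differences on the 2 days. The difference between days was called for 43 genes (0.357%), 8 with a higher and 35 with a lower ET minus LC on day 90, and all 43, which were chosen for that difference, had opposite signs on the 2 days. No gene was called on both days with the same sign, and 5 were called with opposite signs, namely RT1-CE10, RT1-CE12, RT1-CE16, Prss35 and Fubp3. RT1-CE10, a class I major histocompatibility gene, read 10.44, 10.53 and 9.97 in ET and 7.59, 7.34 and 7.44 in LC on day 60. On day 90 it read 7.22, 7.46 and 7.26 in ET and 11.45, 10.17 and 11.16 in LC. Levels thus fell into a high and a low class by whole groups, with ET high on day 60 and LC high on day 90. The day 90 minus day 60 difference was -6.47 ± 0.37 (SE; adjusted p = 1.35e-18), and the mean over both days only -0.38 ± 0.18 (SE; adjusted p = 0.60). RT1-CE12 and RT1-CE16 of the same family followed, at -2.41 ± 0.21 and -2.69 ± 0.33 (SE). Their probe sets are of a kind that can bind related transcripts, and whether the 3 were read separately was not tested.

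Several genes outside the class I family were also higher in ET on day 60 and lower on day 90. Prss35, of the trypsin-like serine protease family, read 7.35, 7.55 and 6.11 in ET and 4.81, 4.54 and 4.63 in LC on day 60, and 5.00, 4.41 and 4.83 in ET and 7.86, 5.36 and 6.88 in LC on day 90. Slc3a1, a subunit of a cystine and dibasic amino acid transporter, read 9.90, 8.33 and 8.70 in ET and 7.77, 7.23 and 7.93 in LC on day 60, and 8.15, 7.51 and 7.56 in ET and 10.44, 9.98 and 9.78 in LC on day 90. Neither overlapped between ET and LC on either day. The low groups of Prss35, ET on day 90 and LC on day 60, lay below the filter level throughout, so the size of its difference between days is imprecise. Ccl9, a chemokine, read 7.50, 6.55 and 7.04 in ET and 5.55, 6.10 and 5.15 in LC on day 60, and 6.22, 5.57 and 5.07 in ET and 7.58, 8.05 and 7.24 in LC on day 90. The groups were again separate on both days, and only its difference between days was called (-3.43 ± 0.80, SE; adjusted p = 0.0304). The low groups of Ccl9, ET on day 90 and LC on day 60, also lay below the filter level, so this size is imprecise. Greb1 and Ccdc77 ran the opposite way. Greb1, a hormone-responsive growth gene, read 7.26, 7.27 and 6.91 in ET and 7.33, 8.11 and 7.94 in LC on day 60, and 7.81, 7.85 and 7.88 in ET and 6.87, 6.92 and 7.09 in LC on day 90. Acsm5, a medium-chain acyl-CoA synthetase and 1 of the 5 lowest genes on day 90, read 6.63, 5.94 and 6.45 in ET and 7.66, 7.57 and 7.82 in LC that day (-1.34 ± 0.25, SE; adjusted p = 0.00349).

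**Figure D3:**
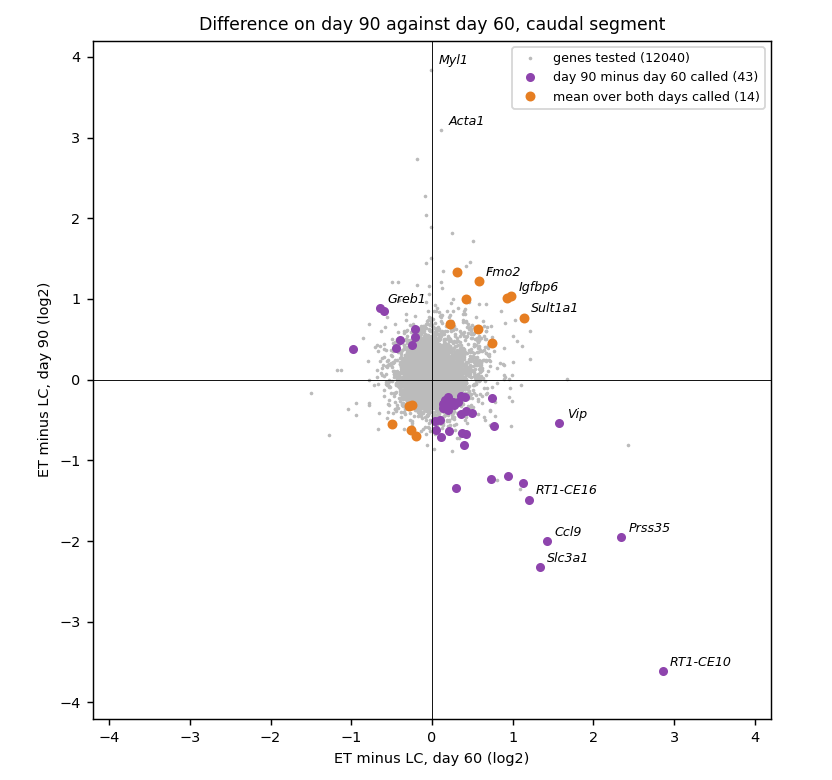
ET minus LC on day 90 (vertical, log2) against day 60 (horizontal, log2) for the 12040 tested genes (grey), the 43 whose difference between days was called (purple) and the 14 called in the mean (orange). The purple genes lie in the 2 quadrants of opposite sign, RT1-CE10 farthest out, and the muscle genes Acta1 and Myl1 lie far up at day 60 values near 0.

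High and low RT1-CE10 groups were also present among caudal ET and LC arrays of other days. RT1-CE10 was high in both groups on day 1 (10.20 to 11.14 in ET, 10.37 to 10.93 in LC) and on day 30 (11.02 to 11.11 in ET, 11.19 to 11.67 in LC). It was low in both on day 10 (6.64 to 7.23 in ET, 7.13 to 7.41 in LC) and on day 20 (7.08 to 7.17 in ET, 7.12 to 7.59 in LC). On day 3 it was low in ET (7.14 to 7.32) and spread from 7.70 to 9.74 in LC. Prss35 ranged from 6.51 to 8.66 over both groups on days 1 and 30 and from 4.36 to 5.40 on days 10 and 20. Its value in LC day 90 replicate 2, 5.36, lay within the lower of these ranges. Slc3a1 ranged from 9.48 to 10.78 on days 1 and 30 and from 7.14 to 7.99 on days 10 and 20, but for 1 LC array of day 20 at 8.95, above 2 of the 3 ET arrays of day 60. The labels do not say whether these groups differed in their stock of animals or in array batch. Each RT1-CE10 class on days 60 and 90 holds whole groups, so on either day the treatment and such a difference cannot be told apart. The mean over days 60 and 90 has 1 high and 1 low group on each side. Contrasts between groups of like RT1-CE10 level, chosen after seeing the data, use the same 12 arrays and average to the mean that chose the 14 genes, so they are given as values only. Between ET on day 60 and LC on day 90, both high, Igfbp6 differed by 1.14 and Comp by only 0.02. Between ET on day 90 and LC on day 60, both low, they differed by 0.88 and 1.17. These contrasts called 7 and 15 genes, of which 0 and 4 were among the 14.

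**Figure D4:**
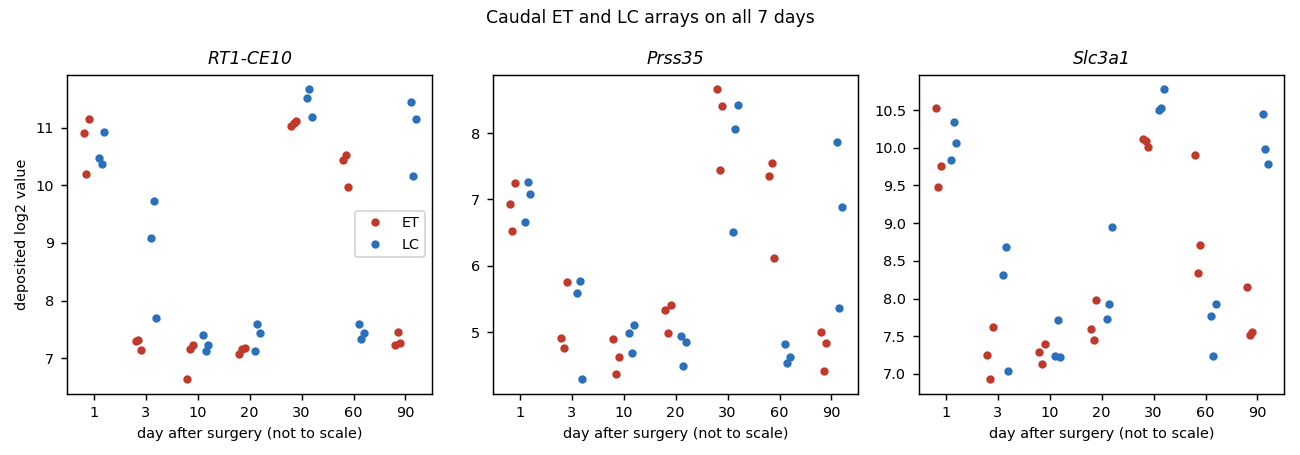
Deposited log2 values of RT1-CE10, Prss35 and Slc3a1 in each caudal ET (left of each pair) and LC (right) array on 7 days, with 3 arrays a group. On day 60 the ET arrays lie above the LC arrays for each gene, and on day 90 below them. For RT1-CE10 they form an upper and a lower class, while Prss35 in LC day 90 replicate 2 (5.36) lies near the lower arrays.

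Set against the first days after surgery, the late difference took another course for many genes. The late difference minus that of days 1 and 3 was called for 1924 genes (16.0%), 1220 higher and 704 lower, and 1081 and 1032 after quantile normalisation. The early difference itself called 2940 genes. Tagln was the gene with the largest positive value, 1.52 ± 0.20 (SE; adjusted p = 2.11e-05), since ET lay below LC early (-0.81) and above it late (0.71). Igfbp6 (1.49 ± 0.30, SE; adjusted p = 0.00268), Crh (1.44 ± 0.35, SE; adjusted p = 0.00819) and the positional gene Hoxd9 (1.50 ± 0.36, SE; adjusted p = 0.00764) also ran from a negative early to a positive late value. The size for Crh is imprecise, since all its late LC arrays lay below the filter level. Hoxd9 marks position along the cord and varied from 7.62 to 10.47 in the 3 uninjured arrays alone. Of 19 vessel genes, 10 were called higher and 0 lower in this contrast. Emcn was one, with -0.34 early and 0.33 late.

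The 4 genes farthest below 0 in this contrast were Ddx60, Agtr1a, Mx2 and Cybb. Cybb, the catalytic subunit of the phagocyte oxidase, differed by 0.95 early and by -0.15 late (-1.10 ± 0.23, SE; adjusted p = 0.00312). Late values were 10.88, 11.18 and 11.12 in ET and 11.21, 11.12 and 11.25 in LC on day 60, against 7.65 to 8.11 in uninjured cord, so both groups stayed far above it. The interferon-induced genes Ddx60 and Mx2 differed by 1.33 and 0.82 early and by -0.37 and -0.33 late. Agtr1a, an angiotensin receptor, differed by 1.25 early and 0.06 late, when it lay below the filter level on all 12 arrays. None of these 4 late differences was called on its own.

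Rostral to the lesion, the same late comparison gave a far larger response. In the joint fit of caudal and rostral arrays, ET minus LC on days 60 and 90 called 3265 genes rostrally and 16 caudally. Of the 16, 10 were among the 14 of the caudal fit. The difference between the segments was called for 619 genes (5.14%), 429 with a higher and 190 with a lower caudal value, a split that turned to 312 and 355 when arrays were scaled on their 75th percentile and to 341 and 309 after quantile normalisation. All 14 caudal genes had the same sign rostrally, and the share of all genes with the same sign was not counted. The labels do not say whether both segments came from the same animals. The joint fit treated their arrays as independent, so its p-values take no account of such a pairing. Fmo2 differed by 0.90 caudally and 2.08 rostrally, and Aldh3a1 by 0.60 and 1.57, and the segments differed for both (adjusted p = 0.00572 and 0.00109). Late LC arrays exceeded the filter level on only 1 caudal and 2 rostral arrays for Fmo2, and on 1 and 0 for Aldh3a1. These sizes are thus imprecise. For Mgp (0.97 caudally, 1.11 rostrally) the difference between segments was -0.13 ± 0.26 (SE; adjusted p = 0.81).

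**Figure D5:**
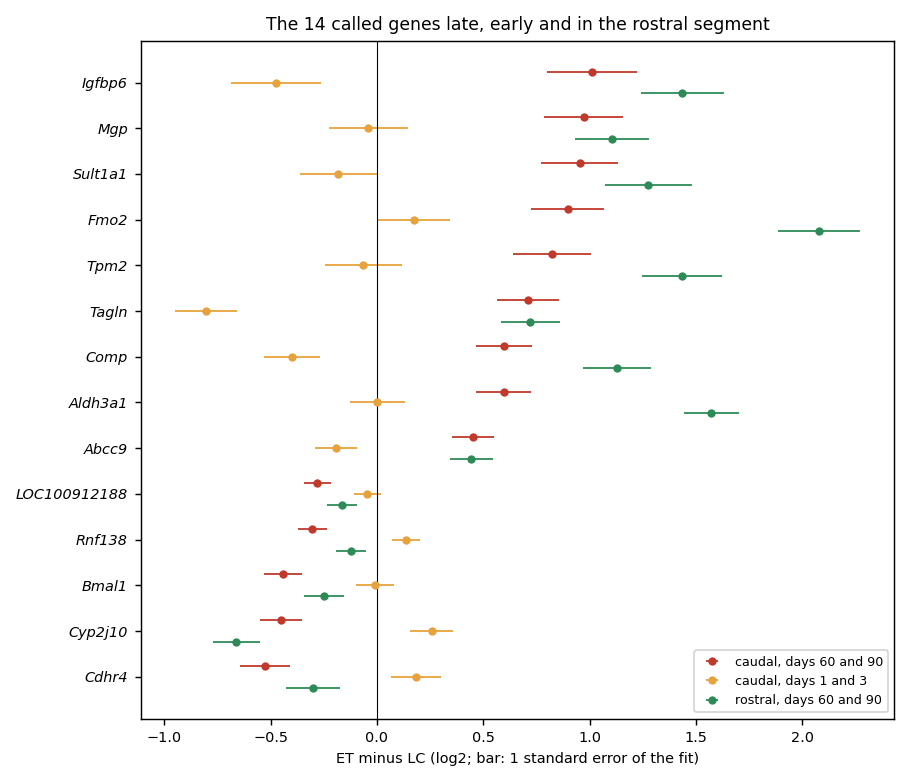
ET minus LC (log2, with 1 standard error of the fit) of the 14 called genes in caudal cord on days 60 and 90 (red), in caudal cord on days 1 and 3 (orange) and in rostral cord on days 60 and 90 (green). Red and green points share their side of 0 for each gene, while the early points of several genes lie on the other side, that of Tagln farthest from 0.

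The segments differed for many neuronal and synaptic genes. Of 23 neuron genes, 9 had a higher called ET minus LC caudally than rostrally and 0 a lower one, and of 19 synaptic genes also 9 and 0. Over all 12040 tested genes the counts were 429 and 190. The neuron list's median was 0.03 caudally and -0.49 rostrally. Under the 2 other scalings 8 and 9 of the neuron genes were called, again 0 lower. Rbfox3, which encodes the neuronal antigen NeuN, differed by 0.27 caudally and -1.02 rostrally (1.29 ± 0.35, SE; adjusted p = 0.0176). Its caudal values were 8.86, 8.88 and 8.78 in ET and 8.63, 9.43 and 8.79 in LC on day 60, against 10.02 to 10.80 in uninjured cord. Pacsin1, an endocytic adaptor of neurons, differed by 1.62 ± 0.34 (SE; adjusted p = 0.00271) and Slc7a14, a transporter, by 1.13 ± 0.25 (SE; adjusted p = 0.00314) between segments. Matrix genes went the other way, with a median of 0.36 caudally and 0.90 rostrally and 3 of 29 called lower caudally. Col1a1, the main collagen of scar, had 0.39 caudally and 1.73 rostrally (adjusted p = 0.03). Ccl21, a lymphatic chemokine, had 1.05 and 3.40. Mmrn1, an endothelial and platelet protein, ranged rostrally from 7.21 to 8.66 in ET and from 4.39 to 4.91 in LC. Mmrn1 and the bone matrix genes Ibsp and Bglap lay below the filter level on all 12 caudal arrays, and no caudal difference is given for them. Rostrally Ibsp ranged from 5.44 to 9.78 in ET and from 3.44 to 4.57 in LC, and Bglap from 4.53 to 11.54 in ET and from 4.22 to 4.84 in LC. Only 1 of these rostral ET arrays lay above the filter level for Ibsp and 2 for Bglap, and 0 of the LC arrays for either.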

How the data were processed

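RNA from the 5 mm of cord below or above the lesion was hybridised to 1-colour Affymetrix arrays. Per the submitters' processing notes, the authors used GCOS, RMA and Affymetrix Expression Console, and the deposited values are log2 intensities, used here as they stand for 31099 probe sets and 167 arrays. Versions, and which arrays were normalised together, are not given in the sources used here. Annotation gave 1 gene symbol to 20826 probe sets and several to 436, which were left out. Where a gene had several probe sets, the brightest on average stood for it. Genes had to exceed their array's 40th percentile on 3 or more arrays, and 12040 did.

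Group means of 66 arrays (all caudal groups and uninjured cord, 44 residual degrees of freedom) were modelled in R 4.3.3 with limma 3.58.1, and p-values had Benjamini-Hochberg adjustment over all tested genes at 0.05. All groups share 1 estimate of spread, and the contrast between segments used 128 arrays. The number of arrays limits the precision. Scripts were tested on simulated data. Groups, gene lists and tests were chosen with earlier results of these data known. Named in the text are the called genes with the same sign on both days (up to 10 highest and 10 lowest), the 5 highest and lowest called on each day, the 4 farthest from 0 each way in each contrast of differences, called list members, fixed marker genes and, as examples, other members of lists.

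The alternatives were the filter, the scaling, the choice of probe set, the arrays fitted, array weights, the prior, the replicate block, beta-actin or muscle as a covariate, and leaving out each array.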

Additional observations from a re-analysis of the deposited data

Results flagged for a closer look

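Results are given here because a test of the difference itself passed between days, periods or segments. Between days 60 and 90, ET minus LC differed for 43 genes. The day 90 minus day 60 values were -6.47 for RT1-CE10, -4.30 for Prss35, -3.66 for Slc3a1 and -3.43 for Ccl9. They were 0.89 for Csgalnact1, 1.37 for Jchain, 1.45 for Ccdc77 and 1.53 for Greb1. The low groups of Prss35 and Ccl9 lay below the level used to filter genes, so their values are imprecise in size. Jchain rests on 1 LC array of day 60, at 8.36 against 7.03 and 6.30 in the others.

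Between the late days and days 1 and 3, the difference changed for 1924 genes. The late minus early values were -1.70 for Ddx60, -1.19 for Agtr1a, -1.16 for Mx2 and -1.10 for Cybb. They were 1.44 for Crh, 1.49 for Igfbp6, 1.50 for Hoxd9 and 1.52 for Tagln. Agtr1a lay below the filter level on all late ET and LC arrays and Crh on all late LC arrays, so their values are imprecise in size.

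Between the caudal and rostral segments, the late difference differed for 619 genes. The caudal minus rostral values were -2.45 for Mmrn1, -2.44 for Ibsp, -2.35 for Ccl21 and -2.14 for Bglap. Mmrn1, Ibsp and Bglap lay below the filter level on all 12 caudal arrays, so their values are imprecise in size. Of the late rostral arrays, only 1 ET array exceeded that level for Ibsp and 2 for Bglap, and 0 LC arrays for either. On the other side the values were 1.13 for Crh, 1.13 for Slc7a14, 1.29 for Rbfox3 and 1.62 for Pacsin1. Crh lay below the filter level on all caudal LC arrays and on all rostral arrays of these days, so its value is imprecise too.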

How the results depend on the processing

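The count of 14 in the mean over both days became 0 with the compared groups alone, 609 with array weights and 23 with the muscle covariate. Contrasts of groups alike in RT1-CE10, chosen after seeing the data, gave 7 and 15. Leaving out 1 array gave 0 to 16. Other settings gave 12 to 16. On day 60 the count of 15 became 6 with no filter, 3 with the compared groups alone, 332 with array weights and 6 to 24 with 1 array left out (6 without ET replicate 1 or 3 or LC replicate 1, 24 without LC replicate 3). On day 90 the count of 38 became 20 with the compared groups alone, 983 with array weights, 58 with the muscle covariate and 15 to 32 with 1 array left out (15 without ET replicate 2, 20 and 21 without LC replicates 1 and 3). The 43 calls between days became 19 with the compared groups alone, 384 with array weights and 23 to 60 with 1 array left out (23 without ET day 90 replicate 2, 26 without LC day 90 replicate 3 and 26 without LC day 60 replicate 1). For late minus early days the 1924 became 755 with the compared groups alone, 4378 with array weights and 635 to 3025 with 1 array left out (635 without ET day 1 replicate 3, 814 without ET day 3 replicate 3 and 3025 without ET day 1 replicate 2, with 982 to 1192 without ET day 60 replicate 3, ET day 90 replicate 2, LC day 60 replicate 3 or LC day 90 replicate 2). Between segments the 619 became 286 in one fit of all arrays, 1220 with the compared groups alone, 3630 with array weights and 285 to 937 with 1 array left out (937 without caudal LC day 90 replicate 3, 285 without caudal LC day 60 replicate 1, and 348 to 398 without caudal ET day 60 replicate 1, ET day 90 replicate 2, LC day 90 replicate 1 or 2 or rostral ET day 90 replicate 1). Among the genes named by rule, no called difference changed sign under any setting run (other called genes were not followed), and the cause of these shifts in count was not tested. The settings reuse these arrays and some leave the differences unchanged, so kept signs are no separate support.

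With the replicate block, all 14 calls over both days were kept. The same-numbered ET and LC arrays had correlations of -0.44 to 0.07 between their deviations, none of 6 pairs over 0.1. No pairing by number was seen in these values, but 6 pairs are too few to exclude it.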
